A study of Mus musculus with 2 samples.

Results

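The interferon genes examined here encode interferon beta (Ifnb1), 8 interferon alpha subtypes (Ifna1, Ifna2, Ifna4, Ifna6, Ifna7, Ifna9, Ifna14 and Ifna15) and an interferon lambda (Ifnl2). They were found by gene symbol among the probe sets that the platform's gene table assigns to a single symbol, which gave all 10 genes with 1 probe set each, out of 22180 named genes. The 2 arrays came from RAW264.7 cells, an established mouse macrophage line, with 1 array for cells labelled HuR-deficient and 1 for wildtype cells. HuR is the product of Elavl1 and binds mRNAs at stretches rich in A and U or in U. Both cultures had been transfected with poly(I:C) of high molecular weight, a synthetic double-stranded RNA, for 8 hours, and the labels give its dose as 1 mg/ml, which could not be checked. The sample's title calls these cells HuR-KO, and the sources used here do not say by what method they were made or whether the line is 1 clone. Unstimulated cells were not analysed here, so no signal below can be shown to be a response to the stimulus. With 1 array per genotype there was no spread between replicates and no test of the genotypes, and every difference is a log2 value for the array labelled HuR-deficient minus the wildtype array. In a whole culture, fewer producing cells and less interferon mRNA per cell cannot be told apart.

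Type I interferons, the beta and alpha proteins, are secreted by cells that sense viral RNA, and all act through the receptor made of IFNAR1 and IFNAR2. In the mouse, Ifnb1 and Ifna4 are known as early genes that IRF3 can switch on, whereas most other alpha genes depend on IRF7, which early interferon itself induces. Lambda interferons act through a separate receptor of IFNLR1 and IL10RB. Interferon mRNAs are short-lived, and the beta mRNA carries AU-rich elements, the kind of sequence that HuR binds.

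The upstream sequences of the interferon genes are shown for 4 of them. These are stretches of 90 bases before the annotated start of Ifnb1, of Ifna4 and Ifna1, the alpha genes with the strongest signals, and of Ifna2, the gene with the largest difference. Each ends with the last TATAAA or TATTTAA run before the start, is written 5′ to 3′ on the gene's strand and comes from the RefSeq promoter table (GRCm38.p6). Capitals mark matches, on either strand, to a pair of GAAA cores with 2 or 3 bases of any kind between them, the pattern bound by interferon regulatory factors, or to the NF-kappaB consensus; no 2 of the marked matches overlap. The Ifnb1 stretch lies at chr4:88522871-88522960 on the minus strand, Ifna4 at chr4:88841681-88841770 on the plus strand, Ifna1 at chr4:88849904-88849993 on the plus strand and Ifna2 at chr4:88683871-88683960 on the minus strand.
Ifnb1: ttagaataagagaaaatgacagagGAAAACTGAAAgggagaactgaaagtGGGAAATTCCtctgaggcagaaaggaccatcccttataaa
Ifna4: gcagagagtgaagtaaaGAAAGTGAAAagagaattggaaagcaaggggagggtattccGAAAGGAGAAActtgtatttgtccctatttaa
Ifna1: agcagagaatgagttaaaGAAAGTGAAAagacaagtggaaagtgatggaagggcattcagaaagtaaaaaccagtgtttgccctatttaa
Ifna2: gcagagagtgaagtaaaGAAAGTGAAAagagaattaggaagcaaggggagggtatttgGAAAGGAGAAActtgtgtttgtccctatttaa

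In the 300-base windows of the table, which matched 9 of the 10 genes, the GAAA pair with 2 bases between was found in 7, all of them alpha genes. Of all 32851 windows in the table, 3.44% held it. The pair with 3 bases between was found in Ifnb1, Ifna2 and Ifna4, against 2.75% of all windows. The NF-kappaB consensus was found in Ifnb1 alone of the 9, against 8.46% of all windows. These are letter matches within a window and not measured binding sites. The alpha genes Ifna1, Ifna2, Ifna9, Ifna14 and Ifna15 have RefSeq models that begin at the start codon, so their windows sit nearer the coding sequence than those of Ifnb1 and Ifna4.

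The interferon genes differed widely in signal, in nearly the same order on both arrays. Ifnb1 had a log2 signal of 11.80 on the array labelled HuR-deficient and 11.80 on the wildtype array, at percentile 99.3 of all named genes on each. Ifnl2, which encodes interferon lambda 2, had 8.08 on the array labelled HuR-deficient and 7.91 on the wildtype array. Ifna4 had 7.71 on the array labelled HuR-deficient and 7.92 on the wildtype array. These 3 and Ifna1, with 7.69 on the array labelled HuR-deficient and 7.89 on the wildtype array, were all at percentile 90.6 or higher on both arrays. A gap of 1.85 on the array labelled HuR-deficient and 1.91 on the wildtype array separated Ifna1 from the next gene, Ifna15. RMA signals depend on the probes as well as on the mRNA, so this order is one of signals and not of molecules.

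The 6 weaker alpha genes lay between 4.0 and 5.85 on the array labelled HuR-deficient and between 4.55 and 5.98 on the wildtype array. Ifna15 had 5.85 on the array labelled HuR-deficient and 5.98 on the wildtype array. Ifna14 had 5.51 on the array labelled HuR-deficient and 5.73 on the wildtype array. Ifna15 ranked 5 and Ifna14 ranked 6 on both arrays. Below them the order differed: Ifna7 ranked 7 on the array labelled HuR-deficient and 9 on the wildtype array, whereas Ifna2 ranked 9 on the array labelled HuR-deficient and 7 on the wildtype array. Near the top, Ifnl2 and Ifna4 also changed places, since they differed by 0.37 on the array labelled HuR-deficient and by 0.0059 on the wildtype array. The narrowest gaps between neighbours on the array labelled HuR-deficient were those of Ifna4 over Ifna1 (0.02), Ifna9 over Ifna2 (0.14) and Ifna14 over Ifna7 (0.20). On the wildtype array the narrowest were those of Ifna4 over Ifnl2 (0.0059), Ifnl2 over Ifna1 (0.02) and Ifna9 over Ifna7 (0.16). With 1 array per genotype, no gap could be set against a spread between replicates.

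**Figure D1:**
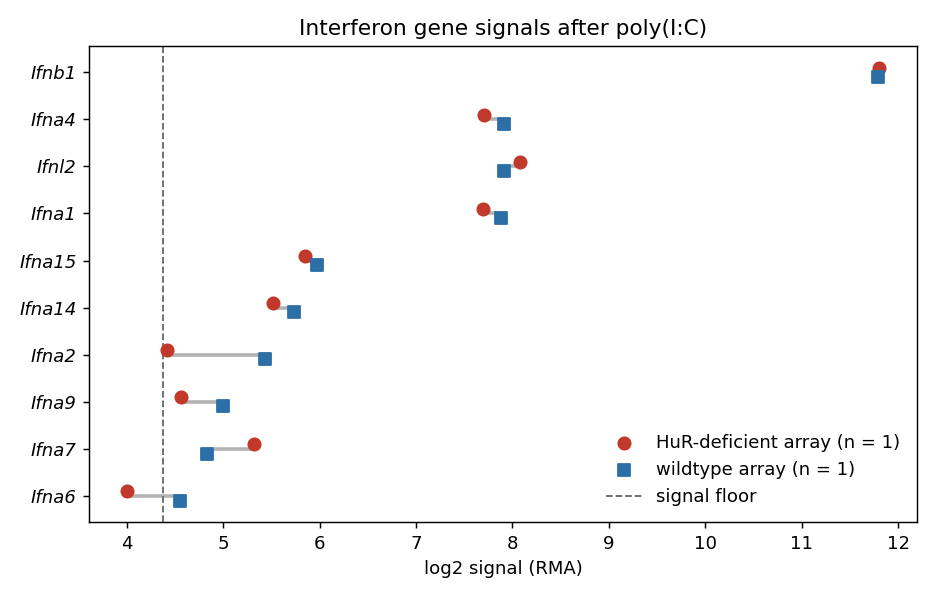
Log2 RMA signal of each interferon gene on the array labelled HuR-deficient (red circles) and the wildtype array (blue squares), 1 array each, with the grey line spanning the pair and the dashed line at the signal floor of 4.38. Ifnb1 stands at 11.80 on both arrays, Ifna2 shows the widest gap, and Ifna6 on the array labelled HuR-deficient is the point left of the floor.

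Of the 10 interferon genes, 7 had a lower signal on the array labelled HuR-deficient and 3 a higher one, and 1 passed 2-fold. A gene was counted at a log2 difference of at least 1, among genes whose higher signal reached 4.38, the median of all named values, and all 10 interferon genes reached it. Of the 11905 genes that did, 1.99% were at least 2-fold apart and 1.11% at least 2-fold lower. A single gene of 10 is too few to be read against that background. The median difference of the 10 genes was -0.20, against a median of 0.00 over all genes that reached the floor, of which 48.6% had a difference below 0.

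Ifnb1 had a difference of 0.0050, or 1.00-fold. Of the 500 genes nearest in mean signal, 96.8% differed by at least as much. Their robust SD (a scaled median absolute deviation) was 0.17, against 0.31 to 0.34 for the genes around the other interferon genes, so the arrays lay closer together at the top of the scale, where Ifnb1 sits.

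Ifnl2 had a difference of 0.17, higher on the array labelled HuR-deficient, and 58.0% of the nearest 500 genes differed by at least as much. The closely related lambda gene Ifnl3 went the other way, with 5.48 on the array labelled HuR-deficient and 5.82 on the wildtype array, a difference of -0.34. The first difference was smaller than the robust SD of genes of similar signal, 0.31, and the second about as large as its own, 0.33.

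Among the alpha genes, 7 of 8 were lower on the array labelled HuR-deficient, with a median difference of -0.21. Ifna2 had 4.42 on the array labelled HuR-deficient and 5.43 on the wildtype array. Its difference of -1.01 is 2.01-fold lower, just past the threshold, and 2.2% of the 500 nearest genes differed by as much or more. The lower Ifna2 value stands 0.04 above the floor. Ifna6 had 4.0 on the array labelled HuR-deficient, below the floor, and 4.55 on the wildtype array, a difference of -0.55. Ifna9 had 4.57 on the array labelled HuR-deficient and 4.99 on the wildtype array, a difference of -0.43. These 3 genes were the ones whose signal on the array labelled HuR-deficient did not exceed the highest of 8 measured marker genes of T and NK cells, 4.62. On the wildtype array, where the highest such marker was 4.36, no interferon gene lay at or under it. That marker was Cd4 on both arrays, so the cut itself differed between them. Ifna6, at 4.55 on the wildtype array, would lie under a cut of 4.62. Krt8, the highest of the fibroblast and epithelial markers, had 4.92 on the array labelled HuR-deficient, above the same 3 genes, and 5.39 on the wildtype array, above Ifna6, Ifna7 and Ifna9.

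The strongly read alpha genes, Ifna1 and Ifna4, differed little. Ifna1 had a difference of -0.19, and 52.8% of its nearest 500 genes were as far apart or further. Ifna4 had a difference of -0.21, with 51.2% of the nearest genes as far apart. Among the weaker alpha genes, Ifna14 (-0.22) and Ifna15 (-0.13) had differences of similar size. Ifna7 was the alpha gene with a higher signal on the array labelled HuR-deficient, 5.32 against 4.83 on the wildtype array, a difference of 0.48 that 18.8% of its nearest genes reached. The 4 alpha genes with the strongest signals, which include Ifna14 and Ifna15 from the weaker group, thus lay between -0.22 and -0.13. The 4 weakest lay between -1.01 and 0.48.

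**Figure D2:**
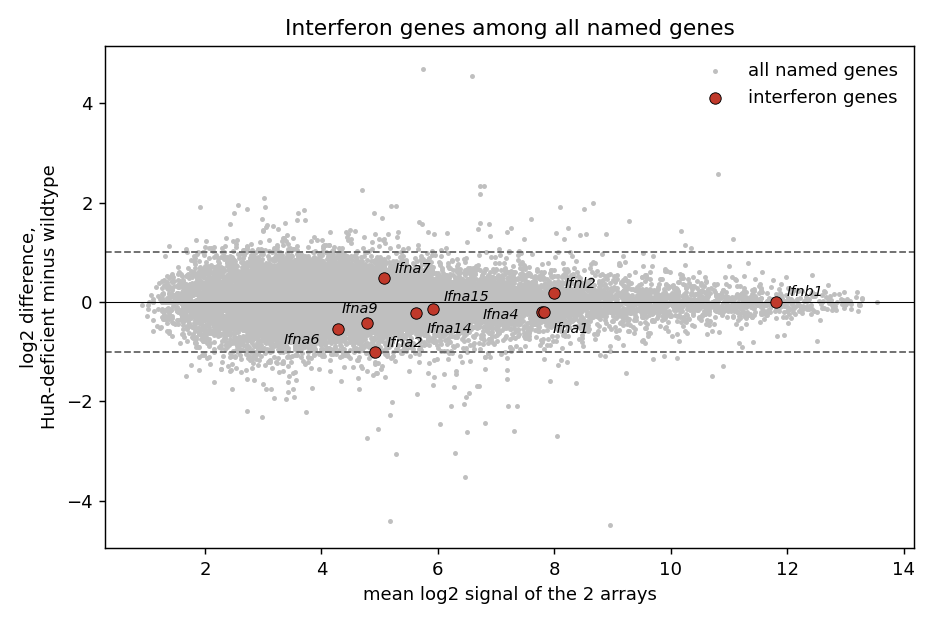
Log2 difference (array labelled HuR-deficient minus wildtype array) against mean log2 signal for all 22180 named genes in grey and the 10 interferon genes in red, with dashed lines at 2-fold. Ifna2 lies at the lower line, Ifnb1 at 0.0050 in the narrow right-hand end of the cloud, and the other interferon genes inside the lines.

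Alpha genes are closely related in sequence. For the 5 alpha genes named above whose RefSeq window holds the start codon, the first 50 coding bases of each pair were identical at 39 to 49 positions. Ifna14 and Ifna15 shared 49 of 50. Ifna1 and Ifna5 shared 50 of 50. Ifna5 was measured here through a probe set assigned to both Ifna5 and Ifna6, with 7.53 on the array labelled HuR-deficient and 7.81 on the wildtype array, a difference of -0.28. That shared probe set stood near Ifna1 and Ifna4 and well above the probe set assigned to Ifna6 by itself. How far probes read several subtypes was not tested.

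The beta and alpha genes lie close together on chromosome 4, whereas Ifnl2 and Ifnl3 are on chromosome 7. The stretch read here was set to run from Ifnb1 to Ifna1, which follows Ifna4, in the RefSeq order of GRCm38.p6. Ifna15, Ifna14 and Ifna9 follow Ifnb1 in that order, and their signals stepped down in it on both arrays. Past Ifna9 lie Ifna12, Ifna13 and Ifna16, which were below the floor on both arrays. Ifna12 had 3.39 on the array labelled HuR-deficient and 3.95 on the wildtype array. Ifna13 had 2.59 on the array labelled HuR-deficient and 3.12 on the wildtype array. Ifna16, with 3.29 on the array labelled HuR-deficient and 2.40 on the wildtype array, had the largest positive difference of the cluster, 0.88, between signals that were not shown to lie above background. Ifna2 and Ifna7 stand further along. Their neighbours Ifnab (3.74 on the array labelled HuR-deficient, 3.82 on the wildtype array) and Ifna11 (2.07 on the array labelled HuR-deficient, 1.44 on the wildtype array) were weak. Ifnz, between Ifnab and Ifna7, had no probe set of its own, and the shared zeta probe sets, given below, stood above the floor. Within the stretch from Ifnb1 to Ifna1, signal thus was strongest at both limits, and genes beyond these limits were not placed in the order.

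The interferon zeta genes in the middle of the cluster, also called limitin, are so alike that 9 probe sets were assigned to between 2 and 15 of them at once. Their signals lay between 5.43 and 5.83 on the array labelled HuR-deficient and between 5.25 and 6.15 on the wildtype array, and 2 of the 9 held the same pair of values. The differences lay between -0.72 and 0.28, with 5 below 0 and 4 above. Outside the cluster's copies, Ifne, an interferon of epithelia, had 3.72 on the array labelled HuR-deficient and 3.20 on the wildtype array. Ifnk, a keratinocyte interferon, had 3.37 on the array labelled HuR-deficient and 3.70 on the wildtype array. Ifng, the type II interferon of T and NK cells, had 3.93 on the array labelled HuR-deficient and 3.60 on the wildtype array. All 3 were below the floor on both arrays. Of the 9 interferon genes outside the 10 that had a probe set of one symbol, Ifnl3 reached the floor.

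**Figure D3:**
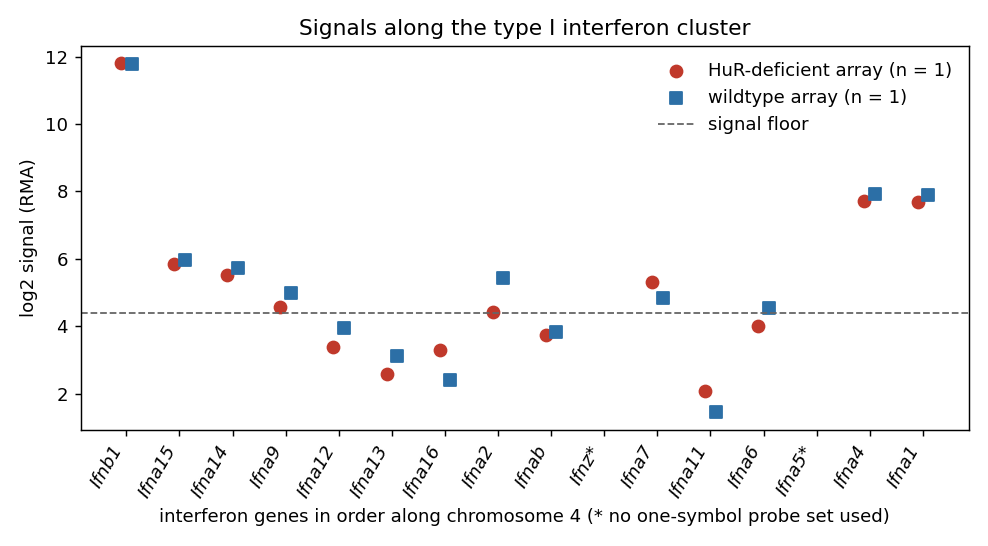
Log2 RMA signal of the interferon genes from Ifnb1 to Ifna1 in their order along chromosome 4 (equal steps, not distances) on the array labelled HuR-deficient (red circles) and the wildtype array (blue squares), with the dashed line at the floor of 4.38. Signals are strongest at Ifnb1 on the left and at Ifna4 and Ifna1 on the right, and the genes between them lie lower on both arrays.

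By distance between the pairs of log2 signals over the 2 arrays, the named genes most like Ifnb1 were Ywhaq (0.0084), Gapdh (0.015), Hmgb1 (0.042), Imp3 (0.047) and Ppp1r14b (0.048). Those most like Ifna4 were Pstk (0.028), Itpa (0.030), Gpalpp1 (0.031), Thumpd3 (0.032) and Ifna1 (0.034). With 2 arrays, this likeness says only that the signals were close.

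The genes around the interferons were read through lists of general pathway knowledge. None of the lists for receptors, induction, feedback, receptor signalling or interferon-stimulated genes had a member at 2-fold. Of the 6 receptor genes, 5 were lower on the array labelled HuR-deficient, with a median difference of -0.33. Ifnar2, the chain that holds type I interferon most tightly, had 8.34 on the array labelled HuR-deficient and 8.75 on the wildtype array, and Ifnar1 had 4.47 on the array labelled HuR-deficient and 4.43 on the wildtype array. Il10rb, the chain shared by the lambda interferon and IL-10 receptors, had a difference of -0.50. Ifnlr1, the chain particular to lambda interferon, had 3.16 on the array labelled HuR-deficient and 3.82 on the wildtype array, below the floor on both.

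The 24 measured genes of double-stranded RNA sensing and interferon induction had a median difference of 0.15, with 15 above 0, 7 below and 2 equal on both arrays. Irf8, a transcription factor of myeloid cells that also acts on interferon genes, had 10.02 on the array labelled HuR-deficient and 9.03 on the wildtype array, a difference of 0.98 that stopped short of 2-fold. In the 500 nearest genes, 1.00% differed by as much. Irf7, the factor most alpha genes need, had 11.05 on the array labelled HuR-deficient and 10.85 on the wildtype array. Irf3, which acts at Ifnb1 first, had 5.43 on both arrays. The adaptor gene Mavs and the kinase gene Ikbke had differences of 0.56 each. Jun, part of the AP-1 factor at the Ifnb1 enhancer, had -0.50, and the RIG-I cofactor gene Rnf135 had -0.39. As much was reached by 11.8% of the nearest 500 genes for Mavs, 8.2% for Ikbke, 12.6% for Jun and 24.4% for Rnf135. Ikbke had 4.51 on the wildtype array, near the floor of 4.38. Of 15 genes that restrain induction, of which 12 reached the floor, 10 were above 0 with a median of 0.14 over all 15. Trim21, a ubiquitin ligase, had 0.66 and Usp21, a deubiquitinase, had 0.63, while Tnfaip3, which encodes A20, had -0.61. Tnfaip3 also stood near the floor, with 4.50 on the array labelled HuR-deficient and 5.11 on the wildtype array.

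Of 36 measured interferon-stimulated genes, which lie downstream of the secreted proteins, 30 had a difference above 0 and 6 below, with a median of 0.20 and none at 2-fold. All 36 reached the floor, and of all genes that did so 49.3% had a difference above 0. Iigp1, an immunity-related GTPase, had 0.93, the nucleotide kinase gene Cmpk2 had 0.66 and the GTPase gene Igtp had 0.60. The helicase gene Ddx60 had -0.17 and the DNA sensor gene Ifi204 had -0.10. Of 13 genes of receptor signalling, 9 were above 0 with a median of 0.07, between the kinase gene Tyk2 at 0.66 and the inhibitor gene Socs3 at -0.38. The interferon genes' median of -0.20 and the stimulated genes' median of 0.20 thus had opposite signs, and their difference was not tested. The genes around the interferon genes had a median robust SD of 0.33. That is a spread of single genes and does not measure how far a list's median varies.

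**Figure D4:**
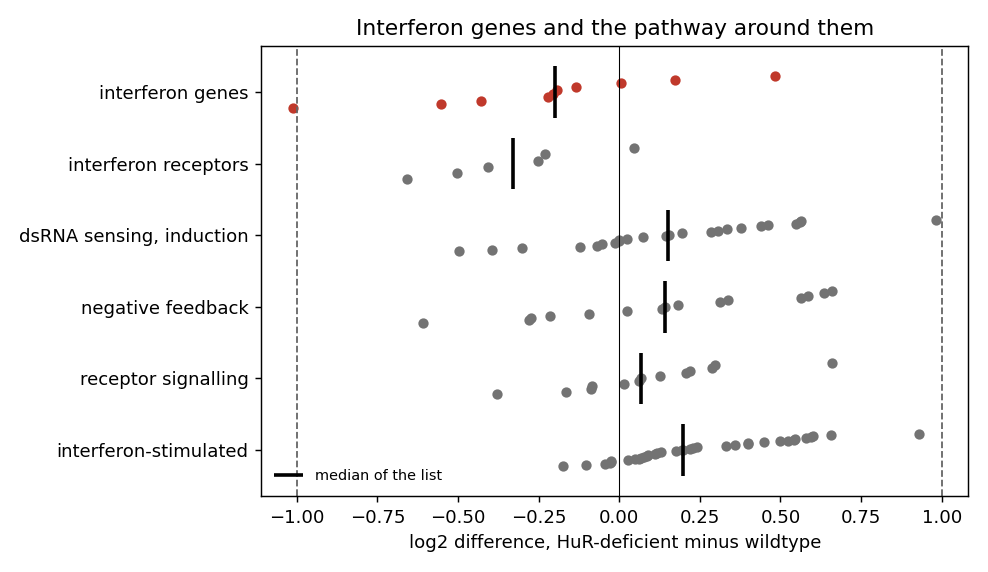
Log2 difference (array labelled HuR-deficient minus wildtype array) of each measured gene in 6 lists, interferon genes in red and the others in grey, with a black bar at each list's median and dashed lines at 2-fold. Interferon and receptor genes have medians below 0 (-0.20 and -0.33), the other lists above 0, and Ifna2 alone reaches a dashed line.

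The targeted gene gave no check of the genotype. Elavl1 had 7.75 on the array labelled HuR-deficient and 7.68 on the wildtype array, and the position of its probes relative to any deleted part is unknown here. Of 12 measured genes for proteins that bind AU-rich or other elements of cytokine mRNAs, 10 reached the floor. Over all 12, 6 were above 0 and 6 below. Zfp36l1, which promotes decay of such mRNAs, had a difference of 0.68, its relative Zfp36 had 0.35, and Ybx1, a general mRNA-binding protein, had -0.55.

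Of the 12 macrophage markers, 11 reached the floor. They averaged a log2 signal of 8.87 on the array labelled HuR-deficient and 8.73 on the wildtype array, although 8 of the 12 were lower on the array labelled HuR-deficient and the median difference was -0.06. Mertk was below the floor on both arrays, with 3.50 on the array labelled HuR-deficient and 2.78 on the wildtype array. Itgam had 4.53 on the array labelled HuR-deficient, under the T cell marker Cd4 (4.62 there), and 4.86 on the wildtype array. Lysozyme (Lyz2) had 12.20 on the array labelled HuR-deficient and 12.34 on the wildtype array, and Adgre1, which encodes F4/80, was the marker past 2-fold, with 6.51 on the array labelled HuR-deficient and 4.94 on the wildtype array. Of the markers of plasmacytoid dendritic cells, known for alpha interferon, 7 of 11 reached the floor, as did 11905 of all 22180 named genes. The mean was 4.65 on the array labelled HuR-deficient and 4.54 on the wildtype array. The markers ranged from 2.10 to 9.18 on the array labelled HuR-deficient and from 1.98 to 8.92 on the wildtype array, with Tlr7 the highest on both. Siglech, the marker most particular to them, had 4.37 on the array labelled HuR-deficient and 4.53 on the wildtype array. Cox6a2 (5.88 on the array labelled HuR-deficient, 5.92 on the wildtype array) and Tlr9 (5.58 and 5.02 in that order) stood higher. The 8 T and NK cell markers averaged 3.95 on the array labelled HuR-deficient and 4.05 on the wildtype array, and the 10 fibroblast and epithelial markers 3.99 on the array labelled HuR-deficient and 4.26 on the wildtype array. No marker was at 0, which RMA signals do not reach, and the part of other cells in the interferon values was not tested.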

How the data were processed

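RNA of 2 RAW264.7 cultures, 1 labelled HuR-deficient and 1 wildtype, was hybridised to Affymetrix arrays. The deposited values are log2 signals from RMA by the authors, per the submitters' processing notes; version and genome build: not given in the sources used here. The method equalises the distribution of signals, so total mRNA per cell cannot be read. That the scale is log2 was judged from the range, 0.434 to 13.8. Of 41345 probe sets, the 23521 with 1 symbol were used, and the one of highest mean stood for a gene. No p-value was computed, because the number of arrays (1 per group) limits what can be tested. Named genes were the 10 interferon genes, the other measured interferon genes, Elavl1, the 5 genes nearest in signal to Ifnb1 and to Ifna4 and, per list, genes at 2-fold and up to 3 in each direction that reached the floor. Ifnlr1, Irf3, Irf7, Mertk and Tlr7 were named after their values were seen. The members and the 12 lists were chosen with earlier results of these data known. Upstream sequences came from RefSeq (GRCm38.p6). The 2-fold count, centring and loess detrending were tested on simulated data, with larger changes than that of Ifna2 and less noise than around the interferon genes. The other steps were not tested in that way. Alternatives were centring, quantile normalisation of the deposited values, detrending by loess (span 0.3), averaging of probe sets, and other filters, thresholds and lists. Software was Python 3.11.15 with pandas 2.3.3, numpy 2.4.6, matplotlib 3.10.9 and statsmodels 0.14.6.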

Additional observations from a re-analysis of the deposited data

How the results depend on the processing

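Under a further quantile normalisation and loess detrending, the 10 interferon genes had differences of the same sign as reported, with Ifna2 at -1.02 and -1.03 and Ifnb1 at 0.03 and 0.02 in that order. Centring (a shift of 0) and averaging of probe sets (1 per interferon gene) could not change their values. The median of the 10 genes was -0.20 as reported and -0.17 after quantile normalisation; their mean was -0.21, and the median with the other interferon genes was -0.19. The count of interferon genes at the threshold was 1 except where the signal floor was raised to the 75th percentile (5.61), which leaves Ifna2 out, or the threshold to 3-fold; both gave 0. Over all genes, the 237 at 2-fold became 417 with no filter, 149 with the higher floor, 1281 at 1.5-fold and 55 at 3-fold. No paired analysis was possible because each genotype has 1 array. Weak signals near the floor limit what can be said of Ifna2, Ifna6 and Ifna9.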
